A study of Mus musculus with 2 samples.

Results

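The 10 genes described here encode the proteins that end a photoreceptor's response to light and reset its calcium-dependent gain: Gucy2e, Gucy2f, Guca1a, Guca1b, Rcvrn, Grk1, Rgs9, Rgs9bp, Gnb5 and Slc24a1. They were chosen by name from the 23356 gene symbols of the deposited table, and the FPKM (fragments per unit of transcript length and of sequencing depth) of a gene's transcripts were summed, over 13 transcripts in all. RNA came from dissected mouse retinas at postnatal day 15, with 1 triple mutant library and 1 control library. Both genotypes were homozygous for floxed Dnmt1, Dnmt3a and Dnmt3b, the genes of the 3 DNA methyltransferases; the triple mutant was Rx-Cre positive and the control Rx-Cre negative, so the control carries the floxed alleles without recombinase. Cre under Rx regulatory sequence acts in the retinal lineage, so cells of other origin in the dissected tissue lie outside the range of the driver. Whether the pigment epithelium lies within that range is not given by the labels. The strain is entered as C57BL/7 for the mutant and C57BL/6 for the control, and how many animals each library holds is not stated. With 1 library per genotype, none of the differences below could be tested or checked against the spread between animals.

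In a photoreceptor, light activates the visual pigment, transducin and a phosphodiesterase, which lowers cyclic GMP and closes cation channels. Recovery needs the pigment to be phosphorylated by a receptor kinase, transducin to hydrolyse its GTP with the help of a GTPase-activating complex, and cyclic GMP to be made again by membrane guanylate cyclases. The fall in calcium that follows channel closure, as the exchanger goes on extruding it, is the feedback signal: calcium-free guanylate cyclase activating proteins stimulate the cyclases, and recoverin releases the kinase.

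Among 13280 genes with at least 1 FPKM in either library, 0.648% were lower in the mutant by a log2 ratio of 1 or more, after adding 1 FPKM to each value. Of the 10 genes described here, 1 was lower in the triple mutant library by the same measure. This was Guca1a, which encodes guanylate cyclase activating protein GCAP1 and stood at 32.1% of the control. Its neighbour and partner Guca1b stood at 57.5%, the kinase gene Grk1 at 61.8%, the anchor gene Rgs9bp at 64.7% and the exchanger gene Slc24a1 at 69.8%. The other 5 (Gucy2f, Rcvrn, Gnb5, Gucy2e and Rgs9) lay between 84.8% and 96.4% of the control. All 10 values were below the control's as the authors scaled them, where the quartiles of the log2 ratio over all measured genes were -0.16 and 0.15. Gucy2e and Rgs9 turned above 0 when ratios were centred on rod genes (log2 ratios 0.03 and 0.02), and Gucy2e also did in the second deposited table (0.01). In bulk tissue, fewer cells of a type and less RNA per cell cannot be told apart.

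The promoter windows of 4 of the genes are shown because they hold the letters GGATTA. The windows of Grk1, Rgs9 and Slc24a1 lack these letters and are not shown. The product of the transcription factor gene Crx binds GGATTA upstream of many photoreceptor genes. Crx itself was close to the control level (459 FPKM in the mutant library and 484 in the control). Binding of CRX to these windows was not tested. Windows from RefSeq (GRCm38.p6), 250 bases before to 50 after the start, were matched for 7 of the 10 genes; Guca1b, Rcvrn and Rgs9bp had no entry. Capitals mark GGATTA or its reverse complement TAATCC, searched on both strands, and each sequence reads 5′ to 3′ on the gene's strand.
Guca1a, chr17:47400557-47400856, minus strand: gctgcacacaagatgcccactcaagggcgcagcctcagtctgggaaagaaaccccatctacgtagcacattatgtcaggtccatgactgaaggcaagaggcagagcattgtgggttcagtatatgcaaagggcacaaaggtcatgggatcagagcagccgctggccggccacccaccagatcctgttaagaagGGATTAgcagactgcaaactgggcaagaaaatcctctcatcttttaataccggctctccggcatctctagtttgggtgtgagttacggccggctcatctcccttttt
Gucy2e, chr11:69236973-69237272, minus strand: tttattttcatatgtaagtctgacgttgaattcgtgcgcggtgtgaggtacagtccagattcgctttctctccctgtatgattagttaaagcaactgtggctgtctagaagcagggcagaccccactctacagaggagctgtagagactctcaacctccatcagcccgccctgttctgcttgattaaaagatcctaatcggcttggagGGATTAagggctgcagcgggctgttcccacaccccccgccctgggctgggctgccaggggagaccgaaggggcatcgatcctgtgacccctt
Gucy2f, chrX:142196887-142197186, minus strand: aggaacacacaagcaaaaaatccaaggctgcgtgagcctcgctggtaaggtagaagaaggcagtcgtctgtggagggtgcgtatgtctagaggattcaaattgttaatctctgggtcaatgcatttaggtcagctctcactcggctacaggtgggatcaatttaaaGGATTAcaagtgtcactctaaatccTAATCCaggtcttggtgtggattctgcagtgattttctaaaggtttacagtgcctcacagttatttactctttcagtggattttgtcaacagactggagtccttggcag
Gnb5, chr9:75306038-75306337, plus strand: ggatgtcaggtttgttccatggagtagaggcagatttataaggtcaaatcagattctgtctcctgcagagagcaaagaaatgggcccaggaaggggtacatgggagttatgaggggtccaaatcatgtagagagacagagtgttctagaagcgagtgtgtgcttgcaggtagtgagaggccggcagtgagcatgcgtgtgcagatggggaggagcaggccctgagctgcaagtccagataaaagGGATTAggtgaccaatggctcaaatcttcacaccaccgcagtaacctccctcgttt

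The letters GGATTA were present in 4 of the 7 matched windows and in 7.06% of all 32851 windows of this length. Their first base lay 57 bases before the start in Guca1a, 42 in Gucy2e, 84 and 59 in Gucy2f, and 6 in Gnb5. The 4 windows with the letters thus belonged to the gene with the lowest log2 ratio, Guca1a (-1.63), and to the 3 with -0.23 in Gucy2f, -0.16 in Gnb5 and -0.05 in Gucy2e. The letters TGCTGA, which are part of the palindrome bound by the rod factor NRL, were searched on both strands. The windows of Grk1 and Rgs9 held them, as did 19.5% of all windows. In both genes they read as the reverse complement TCAGCA, before the start in Rgs9 and after it in Grk1. None of the 7 windows held both TGCTGA and GGATTA. Because the targeted genes encode DNA methyltransferases, CpG dinucleotides were also counted: the 7 windows held 2 in Grk1, 5 in Gnb5, 5 in Gucy2f, 6 in Slc24a1, 8 in Guca1a, 11 in Gucy2e and 19 in Rgs9, against a median of 7 over all windows (quartiles 3 and 20). Methylation of these windows was not analysed here.

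Levels differed widely among the 10 genes, and the highest and lowest were the same in both libraries. Rcvrn was the most abundant per length, with 1356 FPKM in the mutant library and 1586 in the control, and Gucy2f was the least abundant, with 24.7 and 29.1 FPKM in mutant and control. Every gene rested on many fragments. The smallest numbers behind a value were about 4116 in the mutant library, for Guca1a, and 10993 in the control, also for Guca1a. The order between the extremes differed: Guca1a was the fourth highest in the control and the seventh in the mutant library, and Rgs9 was the seventh in the control and the fourth in the mutant. Over all 10 genes the FPKM summed to 2931 in the mutant library and 3932 in the control.

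**Figure D1:**
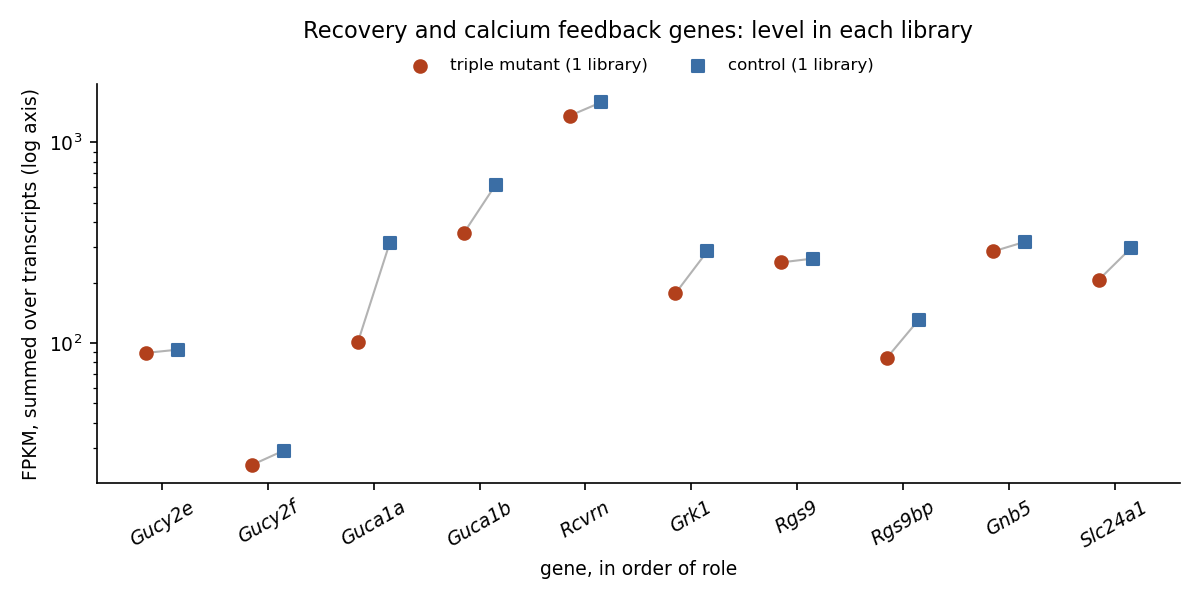
Level of each of the 10 genes in FPKM on a log axis, with the triple mutant library as circles and the control library as squares, joined by a line; there is 1 library per genotype and no error bar. The steepest line is that of Guca1a, at 101 FPKM in the mutant and 315 in the control, and those of Gucy2e and Rgs9 are nearly flat.

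The differences were set against all genes with at least 1 FPKM in either library. Size was the log2 ratio of mutant to control after adding 1 FPKM to each, a scale that hardly shrinks the ratio at the levels of these 10 genes. With a log2 ratio of 1 or more in either direction as the size rule, 1 of the 10 genes was lower (Guca1a) and 0 were higher; of 13280 measured genes, 0.648% were lower and 1.84% higher. At a log2 ratio of at least 0.5, 5 of the 10 were lower (Guca1a, Guca1b, Grk1, Rgs9bp and Slc24a1) and 0 higher, against 4.74% and 5.37% of measured genes. Among the 3911 genes of at least 24 FPKM in the higher library, a range that holds all 10 and was chosen after their values were seen, 3.61% were lower and 3.68% higher by 0.5, and 0.639% were lower and 1.2% higher by 1. The median of the 10 log2 ratios was -0.37, where the median of all measured genes was 0.00 and their quartiles -0.16 and 0.15. The 10 genes were picked for their function with other results of these data known, so the counts are given as a description.

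**Figure D2:**
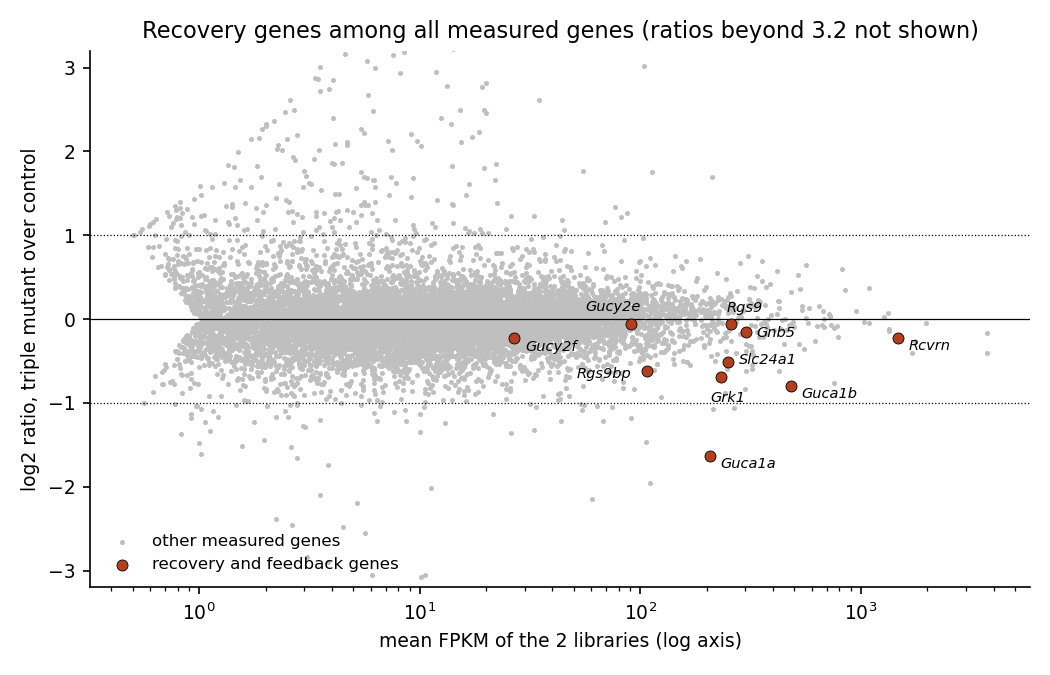
Log2 ratio of mutant to control against the mean FPKM of both libraries (log axis) for all measured genes (grey) and the 10 recovery and feedback genes (coloured, named); dotted lines mark a log2 ratio of 1 either way. Guca1a, at -1.63, is the only one of the 10 beyond a line, and Guca1b, Grk1, Rgs9bp and Slc24a1 lie between -0.80 and -0.52.

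The calcium sensors of the cyclases showed the largest differences. Guca1a had 101 FPKM in the mutant library and 315 in the control (3.11-fold lower, 95% interval 3.003 to 3.23 for counting error only). Just 28 of the 13280 measured genes, or 0.211%, had a lower log2 ratio. These include markers of tissues next to the retina, such as Ttr of the pigment epithelium (-4.52) and Cryaa of the lens (-5.57), and the cone opsin gene Opn1sw (-1.95). Guca1b, which encodes GCAP2, had 353 FPKM in the mutant library and 614 in the control (1.74-fold lower, 1.71 to 1.76), and 1.30% of measured genes had a lower ratio. GCAP1 and GCAP2 sense calcium through EF-hands and switch the cyclases on when calcium falls; both work in mouse rods, and GCAP1 is also prominent in cones.

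The balance within the pair also differed. Per length, Guca1a made up 22.3% of the summed FPKM of the pair in the mutant library and 33.9% in the control, and the sum itself was 454 FPKM in the mutant and 929 in the control, or 48.9%. The 2 genes lie tail to tail on chromosome 17 (GRCm38): Guca1a (ENSMUSG00000023982.8) at 47394558 to 47400584 on the minus strand and Guca1b (ENSMUSG00000023979.14) at 47385393 to 47392967 on the plus strand. The gap between their ends is 1590 bases and their annotated exons do not overlap. Each gene was represented by 1 transcript of 4 exons, coding for 202 residues in Guca1a and 201 in Guca1b.

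In the authors' deposited table, 69 of 30608 transcripts were marked significant, 12 of them lower in the mutant, and 1 of the 13 transcripts of the recovery genes was among these, that of Guca1a (log2 fold change -1.64, q-value 0.0184). The authors' deposited table gives Guca1b a log2 fold change of -0.80 and a q-value of 0.849. Those q-values come from 1 library per genotype and so hold no variation between animals.

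**Figure D3:**
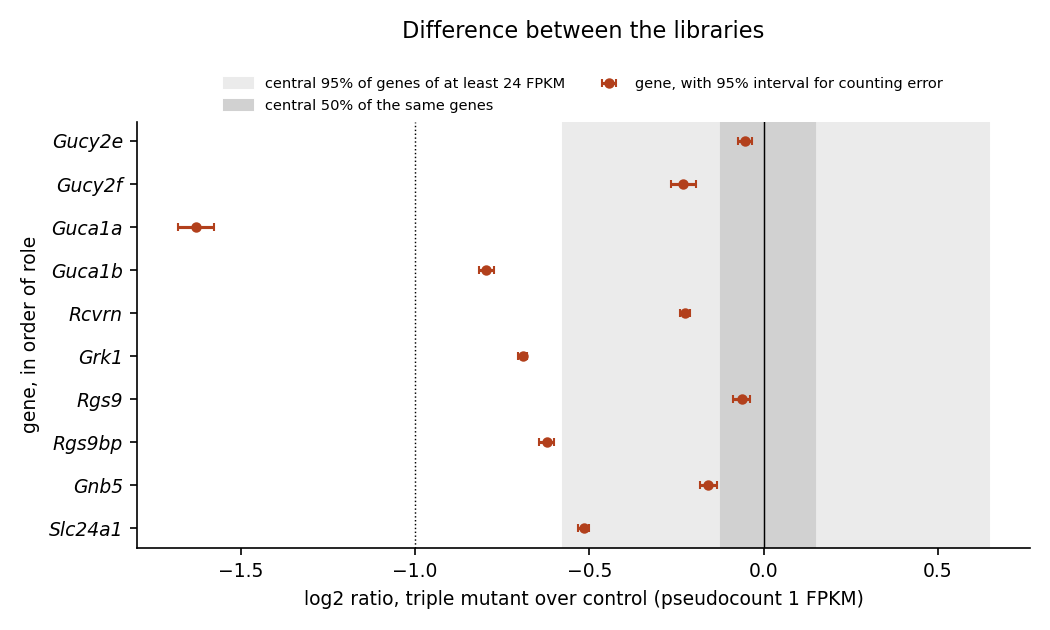
Log2 ratio of mutant to control for the 10 genes in order of role, with 95% intervals that cover counting error only; the bands show the central 50% and 95% of 3911 genes of at least 24 FPKM, and the dotted line a log2 ratio of -1. Guca1a, Guca1b, Grk1 and Rgs9bp lie to the left of the wider band, and Gucy2e and Rgs9 lie inside the narrower band.

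The cyclases that these sensors act on differed far less than the sensors. Gucy2e, the gene of the main photoreceptor guanylate cyclase of mouse rods and cones (GC-E), had 89.3 FPKM in the mutant library and 92.7 in the control, 96.4% (95.01 to 97.7). Gucy2f, which encodes the second photoreceptor cyclase GC-F, had 24.7 FPKM in the mutant library and 29.1 in the control, 84.8% (82.6 to 87.0). Both values lay within the central 95% of genes of at least 24 FPKM (-0.58 to 0.65). Gucy2e was the more abundant of the 2 in each library, 3.62 times Gucy2f in the mutant and 3.18 times in the control.

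Sensor transcript per cyclase transcript was therefore lower in the mutant library. Guca1a had 1.13 times the FPKM of Gucy2e in the mutant library and 3.40 times in the control. Guca1b had 3.95 times the FPKM of Gucy2e in the mutant library and 6.62 times in the control. These are ratios of transcript levels per length; protein was not measured. Of the other guanylate cyclase genes, natriuretic peptide receptors and soluble cyclases included, 4 were measured and 0 passed a log2 ratio of 1, with a median of -0.32. They ran from Gucy1a2 (1.98 FPKM in the mutant and 3.21 in the control) and Npr2 (13.4 and 17.9 in mutant and control) to Gucy1a3 (50.4 and 60.0 in mutant and control) and Gucy1b3 (46.1 and 53.0 in mutant and control).

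The kinase and its calcium-dependent inhibitor also differed by unequal amounts. Grk1, the receptor kinase gene of photoreceptors, whose product in mouse phosphorylates both rod and cone pigments, had 177 FPKM in the mutant library and 286 in the control, 61.8% (61.2 to 62.4). Its log2 ratio of -0.69 was undercut by 1.99% of measured genes. Rcvrn, the gene of recoverin, which holds the kinase back while calcium is high, had 1356 FPKM in the mutant library and 1586 in the control, 85.5% (84.6 to 86.5). Rcvrn thus exceeded Grk1 7.67 times per length in the mutant library and 5.54 times in the control. Rcvrn lies on the plus strand of chromosome 11 (67695326 to 67703333) inside Glp2r, which is on the opposite strand, has no exon overlapping an exon of Rcvrn, and had 5.89 FPKM in the mutant library and 14.1 in the control.

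Relatives of the kinase and of the sensors were compared from lists. Of 5 measured genes of other G protein-coupled receptor kinases, 0 passed a log2 ratio of 1 and the median was -0.09. Grk4 was the lowest of these, at 1.33 FPKM in the mutant library and 2.43 in the control. It was followed by Adrbk2, at 4.63 FPKM in the mutant and 6.34 in the control. Of 17 measured neuronal calcium sensor, calcium-binding protein and calmodulin genes, 0 passed, 12 lay below 0, and the median was -0.13. The lowest of these relatives was Kcnip2 (13.5 FPKM in the mutant and 19.5 in the control, log2 ratio -0.50), with Kcnip4 (17.8 and 25.6 in mutant and control) and Vsnl1 (54.2 and 76.5 in mutant and control) next to it. Cabp4, a calcium sensor of the photoreceptor synapse, had 85.4 FPKM in the mutant library and 110 in the control. Guca1a and Guca1b both lay below the lowest ratio of these 17 relatives, which is a description and not a test.

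The 3 genes of the transducin GTPase-activating complex did not show a common difference. Rgs9, the catalytic member, had 252 FPKM in the mutant library and 264 in the control, 95.7% (94.2 to 97.3). Gnb5, the G protein beta subunit that RGS9 needs for stability, had 286 FPKM in the mutant library and 319 in the control, 89.6% (88.1 to 91.1). Rgs9bp, whose product anchors the complex to the disc membrane, had 84.6 FPKM in the mutant library and 131 in the control, 64.7% (63.7 to 65.6). The anchor gene was the lowest of the 3 in each library: per length it stood at 0.335 of Rgs9 in the mutant and 0.496 in the control. Anchor protein is known in mouse to set the amount of the complex in photoreceptors, but protein was not measured here. Rgs9bp is a gene of 1 exon on chromosome 7 (35578993 to 35585582, minus strand). Its neighbour Ankrd27 starts 661 bases away on the opposite strand and had 10.9 FPKM in the mutant library and 15.4 in the control.

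Rgs9 and Gnb5 each have a photoreceptor form and another form, and the makeup was nearly the same in both libraries. The retinal form of Rgs9 (RGS9-1, 484 residues, NM_001165934) had 251 FPKM in the mutant library and 262 in the control. The longer form known from striatum (RGS9-2, 675 residues, NM_011268) had 1.16 FPKM in the mutant library and 1.38 in the control. The retinal form made up 99.5% of Rgs9 in the mutant and 99.5% in the control. The long form of Gnb5, which pairs with RGS9-1 in photoreceptors (395 residues, NM_010313), had 241 FPKM in the mutant library and 271 in the control. The short form of Gnb5, found in other neurons (353 residues, NM_138719), had 44.5 FPKM in the mutant and 47.3 in the control. The short form made up 15.6% of the gene in the mutant and 14.8% in the control, and the long form 84.3% and 84.8% in mutant and control. A noncoding transcript, NR_073186, made up the small remainder, with 0.457 FPKM in the mutant and 1.25 in the control. The antisense genes Gm19531, whose exons overlap those of Gnb5, and Gm48677 lie within it, and without a statement on strand the fragments of Gm19531 cannot be told apart from those of Gnb5.

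**Figure D4:**
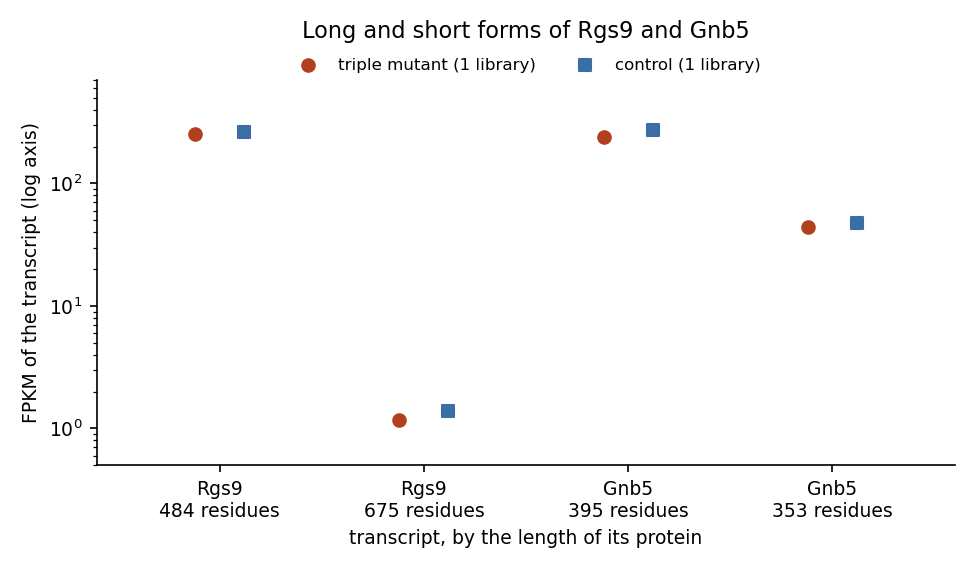
FPKM (log axis) of the photoreceptor and other forms of Rgs9 and Gnb5, labelled by the length of the protein, in the triple mutant library (circles) and the control library (squares). The 484-residue form of Rgs9 is above 250 FPKM in both libraries while the 675-residue form is at 1.16 in the mutant and 1.38 in the control, and the 395-residue form of Gnb5 lies above the 353-residue form in each.

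Gnb5 is also shared with RGS7 and RGS11 in bipolar and other inner retinal neurons. Of 10 measured genes of that family and of the ON bipolar cascade, 0 passed a log2 ratio of 1 and the median was -0.19. Rgs7 had 19.5 FPKM in the mutant library and 24.5 in the control, and Rgs11 had 20.9 FPKM in the mutant and 26.3 in the control. The lowest were the membrane anchor gene Rgs7bp (7.32 FPKM in the mutant and 13.8 in the control), Gpr158 (7.78 and 13.9 in mutant and control) and Rgs6 (8.97 and 14.9 in mutant and control). The highest was the ON bipolar anchor gene Gpr179, at 39.1 FPKM in the mutant library and 35.4 in the control.

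The last of the 10 genes, Slc24a1, encodes the sodium/calcium-potassium exchanger of the rod outer segment (NCKX1), which extrudes calcium and so produces the feedback signal. It had 207 FPKM in the mutant library and 296 in the control, 69.8% (69.1 to 70.6), and 4.40% of measured genes had a lower log2 ratio. The exchanger is bound to the cyclic nucleotide-gated channel in rods, and the channel genes stood on the other side of the control. Cnga1 had 263 FPKM in the mutant library and 240 in the control, and Cngb1 had 374 FPKM in the mutant and 325 in the control. Slc24a1 had 0.785 of the FPKM of Cnga1 in the mutant library and 1.23 times in the control. The exchanger gene Slc24a2, listed here with the cone genes, had 6.72 FPKM in the mutant library and 14.3 in the control, 47.0% (45.1 to 48.8). It was the lowest by log2 ratio (-0.99) of 12 measured calcium exchangers and pumps, of which 0 passed a log2 ratio of 1, 10 lay below 0, and the median was -0.43. Atp2b3 (4.37 FPKM in the mutant and 8.10 in the control), Slc24a5 (1.56 and 3.33 in mutant and control) and Atp2b2 (22.5 and 34.3 in mutant and control) followed. The calcium pump gene Atp2b4 was the highest, with 13.98 FPKM in the mutant and 9.65 in the control. Slc24a4, another exchanger gene of the Slc24a family, had 16.4 FPKM in the mutant and 22.8 in the control (log2 ratio -0.45). The cell types that hold these exchanger transcripts were not tested.

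The activation steps of phototransduction give the context for these values. Of 9 measured rod genes, 0 were past a log2 ratio of 1 in either direction and the median was -0.15, from -0.41 for Pde6g and Gnat1 to 0.20 for Cngb1. Pde6g had 1467 FPKM in the mutant library and 1950 in the control, and Gnat1, the rod transducin gene, had 3211 in the mutant and 4266 in the control. Pde6a followed, with 403 FPKM in the mutant library and 495 in the control. All of the 9 rod genes had higher ratios than Guca1a, Guca1b, Grk1, Rgs9bp and Slc24a1.

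Of 11 measured cone genes, 4 were lower and 0 higher by a log2 ratio of at least 1, 10 lay below 0, and the median was -0.93. No measured gene of the rod list lay below -0.41, though Esrrb, among the rod markers, stood at -0.53. Within the rod and cone lists, the 3 genes with ratios nearest to that of Guca1a over the 2 libraries were cone genes. Outside these lists, the pigment epithelium markers Tyrp1 (0.861 FPKM in the mutant and 4.36 in the control, log2 ratio -1.53) and Lrat (-1.33) and the lens marker Crybb1 (-1.34) lay nearer. The short-wave opsin gene Opn1sw (45.0 FPKM in the mutant and 177 in the control) was 0.33 away on the log2 scale, the cone phosphodiesterase subunit gene Pde6h (138 and 290 in mutant and control) 0.56, and the cone arrestin gene Arr3 (48.3 and 101 in mutant and control) 0.58. Gnat2 was the fourth cone gene past the rule, with 35.2 FPKM in the mutant and 72.1 in the control. The exception was Gnb3, shared by cones and ON bipolar cells, with 347 FPKM in the mutant library and 218 in the control. The part that cone transcripts play in the levels of Guca1a, Grk1 and the other shared genes was not tested.

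**Figure D5:**
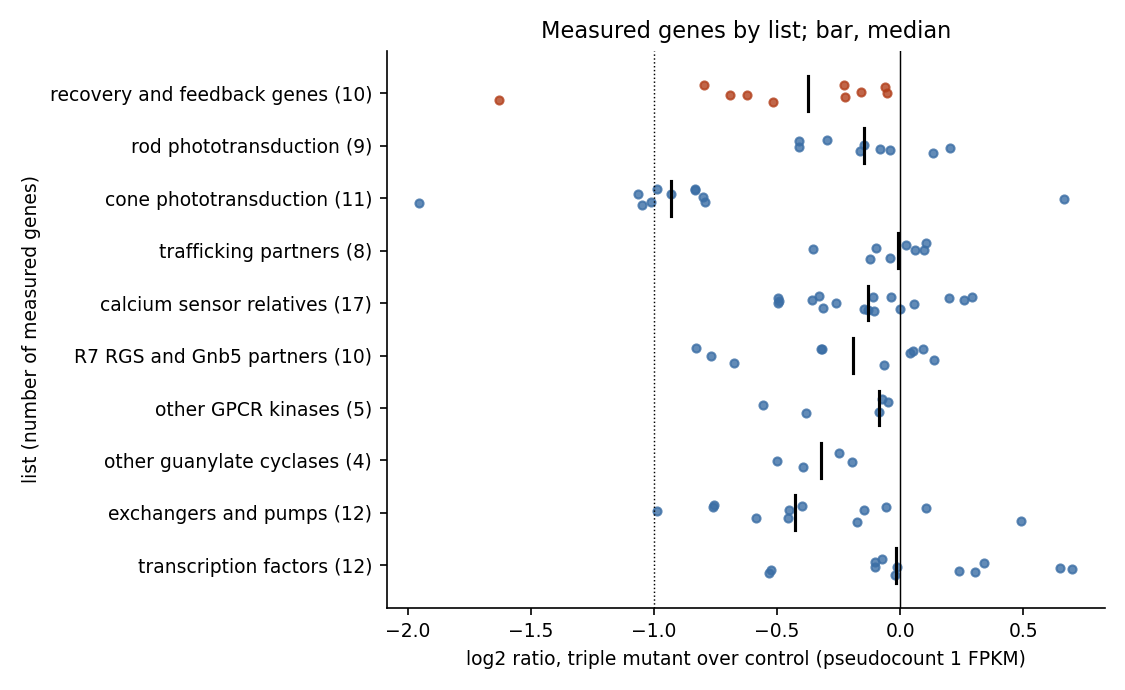
Log2 ratio of mutant to control for the 10 recovery and feedback genes and for each related list, 1 point per measured gene with its number in brackets; bars are medians. The recovery genes have a median of -0.37, between the rod list at -0.15 and the cone list at -0.93, and the transcription factor list centres on -0.02.

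Genes for the transport, folding and transcriptional control of phototransduction proteins were compared last. Of 8 measured trafficking and folding partners, 0 passed a log2 ratio of 1 and the median was -0.01. Rd3, whose product carries the cyclases GC-E and GC-F to the outer segment and restrains them, had 90.1 FPKM in the mutant library and 86.4 in the control. Aipl1, a chaperone gene for the phosphodiesterase, was the lowest at 485 FPKM in the mutant and 620 in the control. Next by size of ratio were Reep6 (440 FPKM in the mutant and 480 in the control), Pde6d (131 and 122 in mutant and control) and Tulp1 (657 and 703 in mutant and control). Of 12 measured photoreceptor transcription factor genes, 0 passed a log2 ratio of 1, 2 were lower and 2 higher by at least 0.5, and the median was -0.02. The largest ratios were those of the rod factors Nr2e3 (443 FPKM in the mutant and 273 in the control) and Nrl (692 and 441 in mutant and control), which were higher, and of Esrrb (97.1 and 141 in mutant and control) and the cone factor Rxrg (3.12 and 4.92 in mutant and control), which were lower.

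Other differences between the libraries bear on how these values are read. Of the targeted genes, Dnmt1 had 11.6 FPKM in the mutant library and 21.7 in the control, and Dnmt3a 56.0 and 87.4 in mutant and control. Dnmt3b was low in both libraries, at 0.827 FPKM in the mutant and 1.03 in the control. Its log2 ratio of -0.15 lay within the quartiles of all measured genes (-0.16 and 0.15). Rod markers were abundant in both libraries, and 0 of 15 measured passed a log2 ratio of 1. Microglia and macrophage markers were higher in the mutant, 9 of 10, with a summed level of 164 FPKM in the mutant and 37.1 in the control. Markers of adjacent tissues were lower in it: pigment epithelium in 8 of 8 (6.66 summed FPKM in the mutant and 133 in the control) and lens in 6 of 6 (7.12 and 159 in mutant and control). Ganglion cell markers passed in 0 of 8, with a median of -0.60, bipolar in 0 of 10 (0.13), Mueller glia in 0 of 8 (0.18), amacrine in 0 of 7 (-0.24) and horizontal in 1 of 5 (-0.40). The part of these shifts in the values of the 10 genes was not tested. By the steps between low values, each FPKM stood for some 56.3 fragments per kb of transcript in the mutant library and 48.3 in the control.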

How the data were processed

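TopHat2 2.0.8 alignments to mm10 and a Cuffdiff 2.1.1 comparison underlie the files, per the submitters' processing notes; annotation, read layout and strandedness are not stated. For each RefSeq transcript the authors deposited an FPKM in 1 mutant and 1 control library, in 2 tables. Their own log2 fold change, p-value, q-value and test score stand beside it, per the file headers; the score was not used. Here FPKM were summed per gene in the table that carries symbols. Genes needed a transcript with status OK and no row that had failed or held excessive data (15318 of 23356 symbols), and counted as measured from 1 FPKM in either library. Size was log2 of mutant over control after adding 1 FPKM. No test between genotypes was possible.

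Fragments were recovered from steps between low values of single-transcript genes of at least 3000 bases, with a fragment length of 150 bases: 71.5% of 312 mutant values and 73.3% of 322 control values were whole multiples within 10% of a step, shares that the fit maximises. Intervals of 95% (exact binomial) on mutant over control cover counting error only. Coordinates and protein lengths are from GENCODE M21 (GRCm38, the assembly of mm10). Python 3.11.15, pandas 2.3.3 and scipy 1.17.1 were used. The size rule and intervals were run on simulated data that held counting error only. That run cannot judge variation between animals, the fitted steps or the assignment of fragments to transcripts.

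Members, lists and alternatives were chosen with earlier results of these data known. Genes named were the 10 members, the 3 targeted genes and opposite-strand neighbours within 3000 bases. Listed genes past a log2 ratio of 1, or otherwise up to 4 per list with the largest ratios, were also named. So were the 3 phototransduction genes nearest to the most extreme member. Crx, Rd3, Rgs7, Gpr179, Cnga1, Gnb3, Slc24a4, Atp2b4, Tyrp1, Lrat and Crybb1 were added after values were seen. Alternatives covered pseudocounts, filters, scalings, the second table, the highest transcript and a smaller size rule.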

Additional observations from a re-analysis of the deposited data

How the results depend on the processing

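Guca1a remained the only gene of the 10 past a log2 ratio of 1, and 0 were higher, under each pseudocount, filter, scaling and table tried. With a size rule of 0.5 the number lower was 5. The filters, centring on all measured genes and the highest transcript left Guca1a at -1.63, so these settings could not change its place. Both deposited tables come from the same 2 libraries. The log2 ratio of Guca1a was -1.55 when centred on the rod marker list and -1.57 in the second deposited table. The median of the 10 was -0.29 and -0.31 in those settings. Both values of Guca1a lie outside its 95% counting interval (-1.68 to -1.58). In each of these 2 settings, all 10 genes lay outside their own counting intervals, so the intervals do not cover the choice of table or scaling. The rod median that was subtracted was -0.08, and the second table's median over all genes was 0.06. Gucy2e (0.03) and Rgs9 (0.02) lay above 0 when centred on rod genes, and 1 of the 10, Gucy2e (0.01), in the second table. The share of all measured genes past the rule depended on the pseudocount, with 1.36% lower and 2.94% higher at 0.1 FPKM and 0.248% and 0.693% at 5. With the 0.5 rule it was 4.74% lower and 5.37% higher, and among genes of at least 24 FPKM, a filter added after seeing the data, 1.20% were higher. No paired analysis was possible because each genotype has 1 library. Depth limits these comparisons little, since each gene rested on at least 4116 fragments; variation between animals was not measured.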
